A study of Mus musculus with 4 samples.

Results

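Biliary and progenitor markers with keratins were examined in AML12 cells grown in 2D and 3D. The members are 10 protein-coding genes, Krt7, Krt8, Krt18, Krt19, Krt23, Sox9, Epcam, Spp1, Cd24a and Vim. They were taken by gene name from the 31828 genes of the deposited table, with earlier results of these data known. AML12 (alpha mouse liver 12) is an established hepatocyte line from a mouse that carried a human TGF-alpha transgene, so the cells of both cultures carry it. After 48 h of shared culture with 10% serum, insulin, transferrin, selenium and 40 ng/mL dexamethasone, the 2D-cultured cells were replated in dishes, while the 3D-cultured cells were embedded in Matrigel, an extract of basement membrane. Both cultures then received 1 mM hydroxyurea, which blocks DNA replication. The drug was given for 24 h in 2D, and in 3D for 36 h after 24 h of growth, so the effects of culture and of treatment time cannot be told apart. Each culture had 2 RNA-seq libraries, and all 4 come from 1 cell line.

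Keratins are intermediate filament proteins of epithelial cells, and each filament is built from type I and type II keratins in equal amounts. Hepatocytes of the adult liver use mainly Krt8 (type II) and Krt18 (type I), and the cholangiocytes that line bile ducts add Krt7 (type II) and Krt19 (type I). Sox9, Epcam, Cd24a and Spp1 are used as markers of cholangiocytes and liver progenitor cells, and Vim (vimentin) is the main intermediate filament protein of mesenchymal cells.

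In the 3D-cultured cells the 4 expressed keratin members and Vim were lower than in the 2D-cultured cells, and Spp1, Sox9 and Cd24a were higher. Spp1 changed most, from 152 ± 19.8 to 775 ± 15.1 TPM, and Vim fell from 690.0 ± 34.4 to 279 ± 6.73 TPM. Krt18, the most abundant member, fell from 6207 ± 112 to 3297 ± 31.2 TPM, and Krt23 and Epcam were at or near 0 in every library. TPM is a transcript level per transcript length, scaled to the same total in every library, so that levels of different genes can be set side by side. Throughout, a value with ± is the mean and SD of a culture (n = 2).

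Of the 8 members with a mean of at least 1 TPM, the minimum for testing, 3 were called higher and 5 lower in 3D. A call is an adjusted p-value under 0.05 by limma on log2(TPM + 1), with Benjamini-Hochberg adjustment over 14116 genes. Among all genes tested, 50.5% were called, 23.4% higher and 27.1% lower. With a log2 fold change (3D minus 2D) beyond 1 as well, 1 member was higher (Spp1) and 1 lower (Vim), against 4.37% and 3.83% of all genes. The libraries of the 8 members did not overlap between cultures, as was the case for 77.5% of all genes tested (35.9% with 3D above and 41.6% with 3D below). The median log2 fold change was -0.57 over the 8 members and -0.04 over all genes tested.

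**Figure D1:**
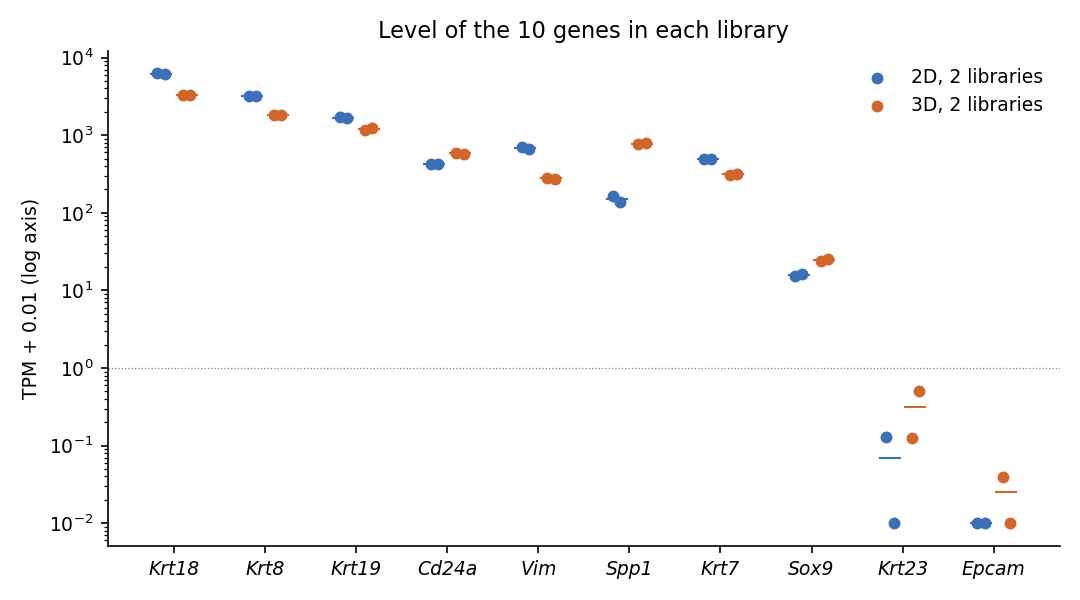
Level of each of the 10 genes in TPM + 0.01 on a log axis, with a point for each library, a bar for the mean of 2 and a dotted line at 1 TPM. The 4 expressed keratin members and Vim lie lower in 3D, Cd24a, Spp1 and Sox9 lie higher, and Krt23 and Epcam lie below the line in all libraries.

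TPM values have a fixed total, so the depth behind them is unknown. Per library, 13891 to 14256 genes reached 1 TPM, and the correlation of log2(TPM + 1) across genes was 0.991 and 0.992 between replicates and 0.951 to 0.952 between cultures. No source used here says that the replicates were grown separately, so the p-values measure the spread between these libraries, which may be technical. For a single value, permuting 2 against 2 libraries exactly cannot give less than 0.333. In such bulk RNA, fewer cells with a transcript and less of it in each cell cannot be told apart.

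The labelled cell type was checked against 20 hepatocyte markers. In all 4 libraries, 12 of them stayed under 1 TPM, among them Cps1, Asgr1, Tat, Pck1 and Cyp2e1. All 7 that were tested rose in 3D, against 23.4% of all genes tested. With a mean of at least 5 TPM as the filter, 6 were called higher. Each filter is a mean over the 4 libraries, so a marker low in 2D can enter the test through 3D alone. No conclusion is drawn from these counts. Hnf4a, a transcription factor of hepatocytes, rose from 57.1 ± 0.663 to 159.7 ± 5.78 TPM. Alb, the gene of serum albumin, was at 0.819 and 1.20 TPM in the 2D libraries and at 12.7 and 10.0 TPM in the 3D libraries. Alb thus passed the filter of 5 TPM through 3D alone. Cftr, the chloride channel of bile ducts and a biliary marker that is no member, had at most 0.384 TPM in any library. Many hepatocyte markers were thus absent or low, while the biliary markers Krt7, Krt19, Sox9 and Spp1 were present in both cultures.

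Krt18 (ENSMUSG00000023043), the type I keratin of hepatocytes, lies on chromosome 15 at 102028180 to 102032027 on the plus strand of GRCm38. Its level was 6286 and 6128 TPM in the 2D libraries against 3275 and 3319.5 TPM in the 3D libraries. No other keratin was as abundant in any library, and the cultures did not overlap. By level it stood at rank 9 among all genes in both 2D libraries and at ranks 21 and 20 in the 3D libraries. The log2 fold change was -0.91 (95% interval -0.99 to -0.83, adjusted p 0.000241 by limma), and 5.06% of the genes tested had a lower one.

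Krt8 (ENSMUSG00000049382), the type II partner of Krt18, lies beside it on the minus strand at 101996698 to 102004482, with 23697 bases between the genes. It was at 3242 and 3199 TPM in the 2D libraries and at 1795 and 1847 TPM in the 3D libraries. Both 3D libraries lay well below both 2D libraries. This gave Krt8 a log2 fold change of -0.82 (95% interval -0.90 to -0.74, adjusted p 0.000287 by limma). A processed pseudogene, Krt8-ps on chromosome 7 (23357125 to 23358069), which may share reads with Krt8, was listed at 18.1 ± 0.770 and 10.4 ± 1.305 TPM in 2D and 3D.

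Because Krt18 and Krt8 are neighbours and fell together, the bases before their starts are shown, with those of Spp1, the member that rose most. They are RefSeq promoter windows of GRCm38.p6, cut to the bases outside the exons of the same gene in GENCODE M21. Capitals mark a match to any of 4 motifs searched on both strands, which were TATAAA, the AP-1 motif TGANTCA, the Sp1 motif GGGCGG and the TEAD motif CATTCC.
Krt18, chr15:102027966-102028179, plus strand: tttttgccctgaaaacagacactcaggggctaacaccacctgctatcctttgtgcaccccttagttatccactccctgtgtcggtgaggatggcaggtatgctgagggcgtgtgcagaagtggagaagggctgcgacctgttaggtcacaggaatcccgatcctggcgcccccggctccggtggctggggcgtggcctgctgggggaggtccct
Krt8, chr15:102004483-102004592, minus strand: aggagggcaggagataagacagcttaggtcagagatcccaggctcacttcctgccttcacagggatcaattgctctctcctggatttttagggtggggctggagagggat
Spp1, chr5:104434861-104435110, plus strand: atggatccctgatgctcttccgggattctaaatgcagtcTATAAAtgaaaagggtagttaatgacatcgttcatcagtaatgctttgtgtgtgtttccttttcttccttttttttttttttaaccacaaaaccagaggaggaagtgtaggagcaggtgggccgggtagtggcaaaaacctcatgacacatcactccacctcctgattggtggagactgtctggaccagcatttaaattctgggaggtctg
The stretch of Spp1 held 1 match, a TATAAA that begins 211 bases before the start, and those of Krt18 and Krt8 held 0. Spp1 has a second RefSeq window, at 104435942 to 104436241, which is not shown and held 0 matches. In the full windows of 300 bases, from 250 before to 50 after the RefSeq start, Krt8 had 2 overlapping TATAAA matches at the start itself, 1 on each strand. Krt7 had 4 GGGCGG matches, Epcam had 1, and Vim had 1 TATAAA beginning 32 bases before the start. Of all 32851 windows, 13.6% held TATAAA, 7.81% TGANTCA, 35.7% GGGCGG and 14.7% CATTCC. Windows were found for 7 of the 10 members, and not for Krt19, Sox9 and Cd24a. A match describes these letters only.

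Krt19 and Krt7, the keratins that mark cholangiocytes, were abundant in both cultures. Krt19 (ENSMUSG00000020911, chromosome 11, 100140810 to 100148665, minus strand) was at 1728 and 1647 TPM in the 2D libraries and at 1174 and 1226 TPM in the 3D libraries. Its lower 2D library was still above its higher 3D library. The log2 fold change was -0.49 (95% interval -0.60 to -0.38, adjusted p 0.00138 by limma). Krt7 (ENSMUSG00000023039, chromosome 15, 101411043 to 101430313, plus strand) was at 492 and 492 TPM in the 2D libraries and at 307 and 319.8 TPM in the 3D libraries. Its 2D replicates were almost equal and both above 3D. This gave Krt7 a log2 fold change of -0.65 (95% interval -0.75 to -0.55, adjusted p 0.000578 by limma).

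Krt23 (ENSMUSG00000006777, chromosome 11, 99477974 to 99493137, minus strand), a type I keratin, was listed at 0.120 and 0 TPM in the 2D libraries and at 0.114 and 0.500 TPM in the 3D libraries. The cultures overlapped. Without a filter on low values its log2 fold change was 0.29 (95% interval -0.17 to 0.75, limma adjusted p 0.3601), so a difference was not detectable at this level.

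**Figure D2:**
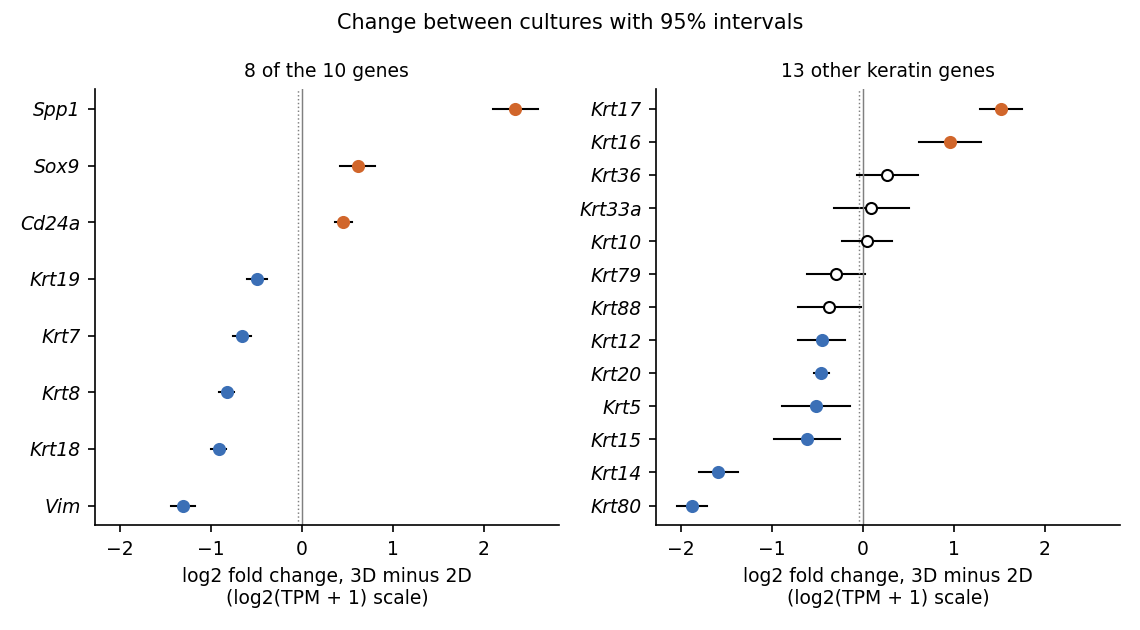
Log2 fold change of 3D minus 2D on the log2(TPM + 1) scale, with limma 95% intervals, for the 8 members tested and for 13 other keratin genes. Filled points passed an adjusted p-value under 0.05, open points did not, and the dotted line is the median of all genes tested. Spp1 stands highest at 2.35 and Vim lowest at -1.30 among the members, and the other keratins run from Krt80 at -1.87 to Krt17 at 1.52.

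Since type I and type II keratins pair in filaments, their sums and ratios were compared. The 5 keratin members summed to 11748 and 11466 TPM in the 2D libraries and to 6551 and 6713 TPM in the 3D libraries, a log2 difference of -0.81. The ratio of type II (Krt7 and Krt8) to type I (Krt18, Krt19 and Krt23) transcripts was 0.466 and 0.475 in the 2D libraries against 0.472 and 0.477 in the 3D libraries. The cultures overlapped in this ratio, and its difference of 0.00425 changed sign, to -0.000157, without 2D replicate 1. Keratin members thus fell in total, while their balance between types differed by less than the spread between replicates.

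Over all keratin genes of the table the ratio of type II to type I was 0.435 and 0.444 in the 2D libraries against 0.415 and 0.420 in the 3D libraries, without overlap. That of Krt8 to Krt18 was 0.516 and 0.522 in the 2D libraries against 0.548 and 0.556 in the 3D libraries. For Krt19 to Krt18 the ratios were 0.275 and 0.269 in 2D and 0.358 and 0.369 in 3D. The latter 2 ratios were higher in both 3D libraries than in either 2D library, and the exact permutation test of such a ratio cannot give less than 0.333. Krt18 made up 48.2% ± 0.209 of all keratin TPM in 2D and 44.1% ± 0.221 in 3D, and Krt19 made up 13.1% ± 0.263 and 16.1% ± 0.263. All keratin genes together held 1.29% ± 0.0176 of the TPM in 2D and 0.747% ± 0.0108 in 3D.

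**Figure D3:**
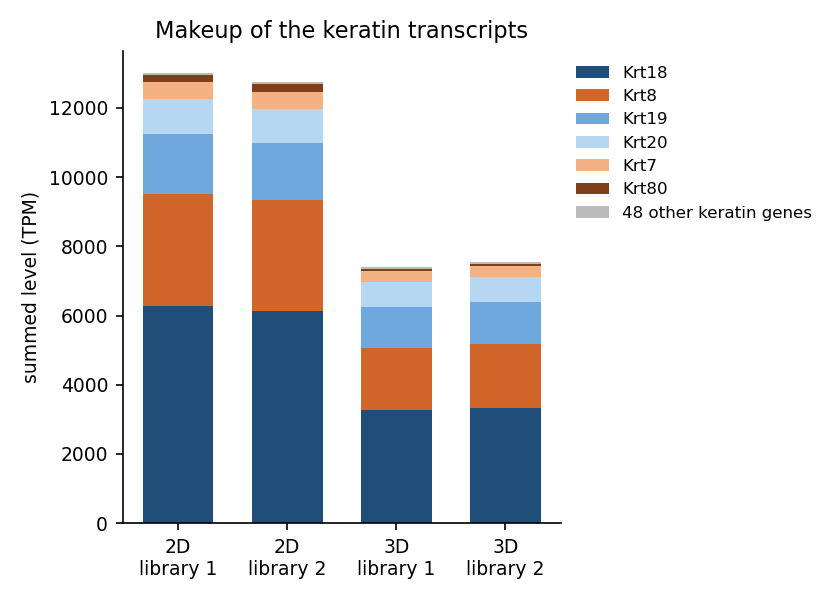
Stacked level in TPM of the keratin genes in each of the 4 libraries. Blue shades are named type I genes, brown and orange shades are named type II genes, and grey is the remaining keratin genes of both types. The bars reach 13004 and 12754 TPM in 2D and 7393 and 7546 TPM in 3D, and Krt18 is the largest share in every library.

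The table lists 54 keratin genes, 28 of type I and 26 of type II, of which 49 are not members. Of these, 34 stayed under 1 TPM in all 4 libraries. With a mean of at least 5 TPM as the filter, 1 was called higher and 4 lower in 3D. At the filter of 1 TPM, which Krt15 passed through 2D alone, 13 were tested. Of these 13, 2 were called higher and 6 lower in 3D, or 61.5% against 50.5% of all genes, with a median log2 fold change of -0.37. Without 2D replicate 2, 3D replicate 1 or 3D replicate 2, the count of lower calls was 3.

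Krt20, a type I keratin known from intestine and urothelium, was the most abundant keratin that is no member. It fell, with 992 and 1002 TPM in the 2D libraries and 732 and 724 TPM in the 3D libraries (log2 fold change -0.45, adjusted p 0.000792 by limma). Krt80, a type II keratin and the direct neighbour of Krt7, had the lowest fold change of the family. It was at 199.7 and 218 TPM in the 2D libraries and at 57.6 and 55.0 TPM in the 3D libraries (log2 fold change -1.87, adjusted p 0.000241 by limma). Neither gene overlapped between cultures.

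Keratins of stratified epithelium were low and moved in both directions. Krt14, the type I keratin of basal cells, fell from 26.0 ± 0.385 to 8.02 ± 0.617 TPM, and its partner Krt5 fell from 3.58 ± 0.661 to 2.19 ± 0.0359 TPM (adjusted p 0.000465 and 0.0379 by limma). Krt17 and Krt16, which are induced in wounded skin, rose from 3.29 ± 0.176 to 11.3 ± 0.00424 TPM and from 1.13 ± 0.146 to 3.14 ± 0.260 TPM (adjusted p 0.000574 and 0.00451 by limma). Krt14, Krt16 and Krt17 are consecutive keratin genes on chromosome 11, so neighbours there changed in opposite directions. Krt10, a keratin of differentiating epidermis, had 8.75 ± 0.912 and 9.07 ± 0.516 TPM and did not pass the test (adjusted p 0.723 by limma). Krt12, a keratin of the cornea, fell from 6.13 ± 0.297 to 4.22 ± 0.250 TPM, and Krt15, of basal cells, fell by 0.61 on the log2 scale (adjusted p 0.0189 and 0.0212 by limma). Krt36, Krt88, Krt79 and Krt33a, each at 4.17 TPM or less, did not pass the test (adjusted p 0.143, 0.0753, 0.107 and 0.639 by limma). Krt76 and Krt83 reached 1.79 and 1.07 TPM in a library but had a mean under 1 TPM over the 4 libraries and were not tested. Krt76 was listed higher in 3D (0.267 ± 0.0664 TPM in 2D and 1.675 ± 0.170 in 3D). Krt83 was listed lower in 3D (1.00 ± 0.0952 and 0.750 ± 0.0758 TPM).

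**Figure D4:**
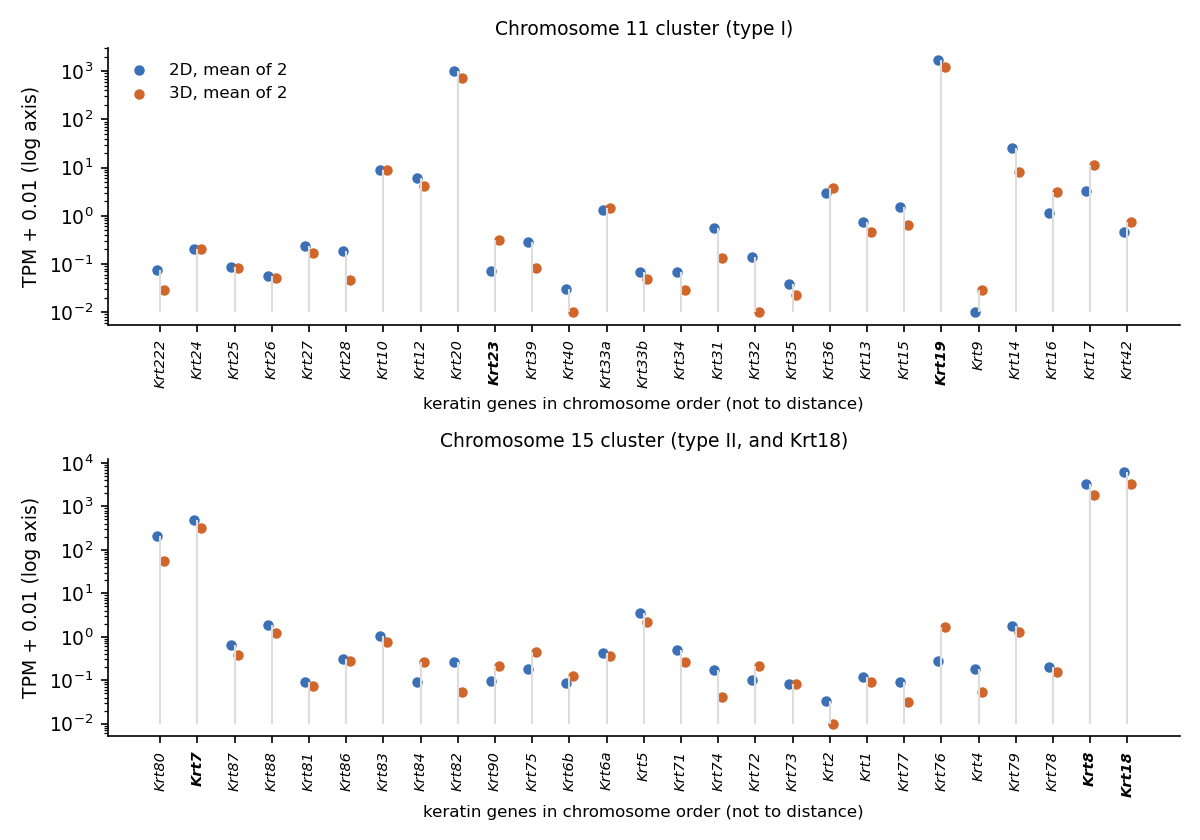
Mean level of every keratin gene of the table in chromosome order, 27 genes on each chromosome, as TPM + 0.01 on a log axis, with members in bold. Abundant genes stand beside nearly silent ones, such as Krt20 at 997 TPM in 2D beside Krt23, and Krt19 at 1687 TPM between Krt15 and Krt9.

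Along the chromosomes, Krt18 and Krt8 are each other's neighbours, and Krt7 lies beside Krt80. Krt20, beside Krt23, was abundant, while the remaining neighbours of the members were at low levels. Krt19 lies between Krt15, which had 1.51 ± 0.190 TPM in 2D and 0.646 ± 0.0325 in 3D, and Krt9, listed at 0 in both 2D libraries. Krt23 lies between the abundant Krt20 and Krt39, which stayed under 1 TPM. Krt87, separated from Krt7 by 724 bases, and Krt78, the keratin gene before Krt8, also stayed under 1 TPM in all 4 libraries.

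Vim (ENSMUSG00000026728, chromosome 2, 13573927 to 13582826, plus strand) fell more than any keratin member. It was at 714 and 666 TPM in the 2D libraries and at 284 and 274 TPM in the 3D libraries. Both 3D libraries lay far below the lower 2D library. The log2 fold change was -1.30 (95% interval -1.43 to -1.17, adjusted p 0.000282 by limma), and 1.98% of the genes tested had a lower one. The ratio of Vim to Krt18 was 0.111 ± 0.00354 in 2D and 0.0847 ± 0.00284 in 3D.

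Of 23 mesenchymal genes in the table, 12 were tested, and 6 were called lower and 1 higher in 3D, or 58.3% against 50.5% of all genes, with a median log2 fold change of -0.44. S100a6, a calcium-binding protein, fell from 4403 ± 96.2 to 2341 ± 0.440 TPM, Sparc, a matricellular protein, fell from 393 ± 0.421 to 216 ± 3.58 TPM, and Fn1 (fibronectin) fell from 313 ± 47.1 to 141 ± 10.8 TPM. On the log2 scale, the receptor kinase gene Axl fell by 0.55 and Cdh2 (N-cadherin) fell by 1.25 (adjusted p 0.00109 and 0.000407 by limma). The integrin gene Itgb3 rose by 1.54 (adjusted p 0.000461 by limma). The other 5 did not pass the test. Among them were the transcription factor genes Zeb1, Snai2 and Snai1, named after their values were seen (adjusted p 0.927, 0.941 and 0.0911 by limma). Without 2D replicate 2 the count of higher calls was 2.

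Of 22 epithelial genes, 12 were tested, with 4 higher and 1 lower in 3D, or 41.7% against 50.5% of all genes, and a median log2 fold change of 0.26. Cdh1 (E-cadherin) rose from 15.8 ± 0.316 to 70.7 ± 3.21 TPM (log2 fold change 2.09, adjusted p 0.000215 by limma). The polarity gene Crb3 rose by 1.29 and the protease inhibitor gene Spint2 rose by 0.72 on the same scale (adjusted p 0.000822 and 0.00141 by limma). Of the tight junction genes, F11r had 147 ± 0.414 and 157 ± 1.00 TPM, Tjp1 125 ± 9.18 and 114 ± 7.34 TPM, and Lsr 197 ± 29.3 and 177 ± 26.7 TPM, and none of the 3 passed the test (adjusted p 0.0829, 0.205 and 0.437 by limma). The single lower call, Grhl1, named after its values were seen, was lost without 2D replicate 2, 3D replicate 1 or 3D replicate 2, leaving 0.

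Of 12 other intermediate filament genes, 5 were tested, with 3 lower and 1 higher in 3D, or 80% against 50.5% of all genes, with a median log2 fold change of -0.35. The lamin genes Lmnb1 and Lmnb2 fell by 0.60 and 0.31, and Des (desmin, of muscle and stellate cells) fell by 0.91 on the log2 scale (adjusted p 0.00158, 0.0229 and 0.00122 by limma). Lmna had 391 ± 92.3 and 307 ± 80.5 TPM and did not pass the test (adjusted p 0.28 by limma). The higher gene, Gfap, named after its values were seen, was lost without any 1 of the 4 libraries, leaving 0.

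Markers of other cell types were summed beside Vim. Of 11 stellate cell and fibroblast markers, 8 were under 1 TPM in all libraries, Hand2 was listed at 0 in 3 of 4, and the sum was 38.1 to 41.8 TPM in 2D and 20.8 to 21.8 TPM in 3D, most of it from Des. Both tested genes of that list were lower, against 27.1% of all genes, and 1 of them without 2D replicate 2, 3D replicate 1 or 3D replicate 2. Of 9 endothelial markers 7, and of 11 macrophage and leukocyte markers 9, were under 1 TPM in all libraries. The endothelial sum was 12.1 to 17.0 TPM in 2D and 20.03 to 25.9 TPM in 3D. Of its 2 tested genes 1 was higher, against 23.4% of all genes, or 0 with a mean of at least 5 TPM as the filter. The macrophage and leukocyte sum was 21.4 to 22.6 TPM in 2D and 23.4 to 28.1 TPM in 3D. Of its 2 tested genes 1 was lower, against 27.1% of all genes, or 0 with a mean of at least 5 TPM as the filter. The macrophage and leukocyte calls also changed when some single libraries were left out. The part of other cell types in the change of Vim was not tested.

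Linker proteins tie keratin filaments to each other and to cell junctions. Of 21 genes on the list of linker and desmosome genes, 17 were tested. Of these, 9 were called lower and 3 higher in 3D, or 70.6% against 50.5% of all genes, with a median log2 fold change of -0.23. The higher calls include Bfsp1 and Bfsp2, which are beaded filament genes rather than linkers. Bfsp1, named after its values were seen, rose by 1.51. The linker genes Dst (dystonin), Plec (plectin) and Ppl (periplakin) fell by 0.65, 0.55 and 0.47 (adjusted p 0.00293, 0.0109 and 0.00405 by limma). Evpl (envoplakin) fell from 12.96 ± 1.81 to 2.39 ± 0.0267 TPM, and Bfsp2, a beaded filament gene of the eye lens, rose from 8.06 ± 0.191 to 48.6 ± 0.675 TPM (adjusted p 0.000622 and 0.000202 by limma). Jup (plakoglobin) had 233 ± 12.6 and 219 ± 15.4 TPM and did not pass the test (adjusted p 0.317 by limma). The count of lower calls was 4 without 3D replicate 1 and 5 without 3D replicate 2.

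Spp1 (ENSMUSG00000029304, chromosome 5, 104435118 to 104441050, plus strand) encodes osteopontin, a secreted phosphoprotein. It was at 166 and 138 TPM in the 2D libraries and at 764 and 786 TPM in the 3D libraries. The higher 2D library was far below either 3D library. This gave Spp1 a log2 fold change of 2.35 (95% interval 2.10 to 2.59, adjusted p 0.000317 by limma), a 5.09-fold rise on the means, and 0.482% of the genes tested had a higher one. Its rank by level moved from 1027 and 1333 in the 2D libraries to 144 and 142 in the 3D libraries. Gm42793, a short gene model on the same strand that overlaps Spp1, was listed at 0.474 ± 0.0837 and 1.61 ± 0.710 TPM, and adding it to Spp1 gave a log2 fold change of 2.34.

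Osteopontin is bound by integrins and by CD44. Of 12 genes of receptors and partners, 8 were tested, with 2 higher and 3 lower in 3D, or 62.5% against 50.5% of all genes, and a median log2 fold change of -0.07. Itgb3 rose from 10.9 ± 0.688 to 33.8 ± 1.58 TPM, while Itgav, whose product pairs with it, had 114 ± 0.126 and 123 ± 6.37 TPM and did not pass the test (adjusted p 0.000461 and 0.159 by limma). Itgb1 fell by 0.80, Cd44 by 0.26 and Thbs1 (thrombospondin 1) by 1.57 on the log2 scale (adjusted p 0.000406, 0.00877 and 0.000504 by limma). Tgm2, which crosslinks osteopontin, had 463 ± 9.71 and 441 ± 6.04 TPM and did not pass the test (adjusted p 0.164 by limma).

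Sox9 (ENSMUSG00000000567, chromosome 11, 112782224 to 112787760, plus strand), a transcription factor of cholangiocytes, was at 15.2 and 16.5 TPM in the 2D libraries and at 24.2 and 25.4 TPM in the 3D libraries. It was the lowest of the 8 tested members, and the cultures did not overlap. The log2 fold change was 0.62 (95% interval 0.42 to 0.81, adjusted p 0.00317 by limma).

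Cd24a (ENSMUSG00000047139, chromosome 10, 43578284 to 43584265, plus strand), a small glycosylated surface protein, was at 429.7 and 419.8 TPM in the 2D libraries and at 589 and 579 TPM in the 3D libraries. Replicates lay close together, and the cultures did not overlap. This gave Cd24a a log2 fold change of 0.46 (95% interval 0.37 to 0.55, adjusted p 0.000992 by limma), the smallest of the 3 members that rose.

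Epcam (ENSMUSG00000045394, chromosome 17, 87635979 to 87651106, plus strand), an adhesion protein of cholangiocytes and many other epithelia, was listed at 0 in both 2D libraries and in 1 of the 3D libraries, and at 0.0298 TPM in the other. A listed 0 can be a failed estimate. Without a filter on low values its adjusted p was 0.605 by limma. Krt7, Krt19, Sox9 and Spp1 were thus present in every library with next to no Epcam.

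Of 42 symbols of other biliary and progenitor genes, 39 were in the table and 26 were tested. Cyr61 was listed also under its other symbol, Ccn1, which is not in the table. In 3D, 13 were called higher and 7 lower, or 76.9% against 50.5% of all genes, with a median log2 fold change of 0.23. The filter is a mean over the 4 libraries, so some genes under 1 TPM in 2D passed it through 3D alone. With a mean of at least 5 TPM as the filter, 10 were called higher and 7 lower. Of the most abundant, Tspan8, a tetraspanin, rose by 0.94 and the anion exchanger gene Slc4a2 by 0.27, while Tnfrsf12a, a receptor of progenitor cells, fell by 0.55 (adjusted p 0.000317, 0.0257 and 0.00115 by limma). Lcn2, a siderophore-binding protein of injured epithelium, rose from 19.0 ± 0.308 to 209 ± 7.04 TPM, and Cyr61, a matricellular protein, fell from 201 ± 10.2 to 49.9 ± 0.594 TPM (adjusted p 9.63e-05 and 0.000202 by limma). Like the members, these genes moved in both directions, and their summed level was 2112 to 2132 TPM in 2D and 2117 to 2120.3 TPM in 3D.

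**Figure D5:**
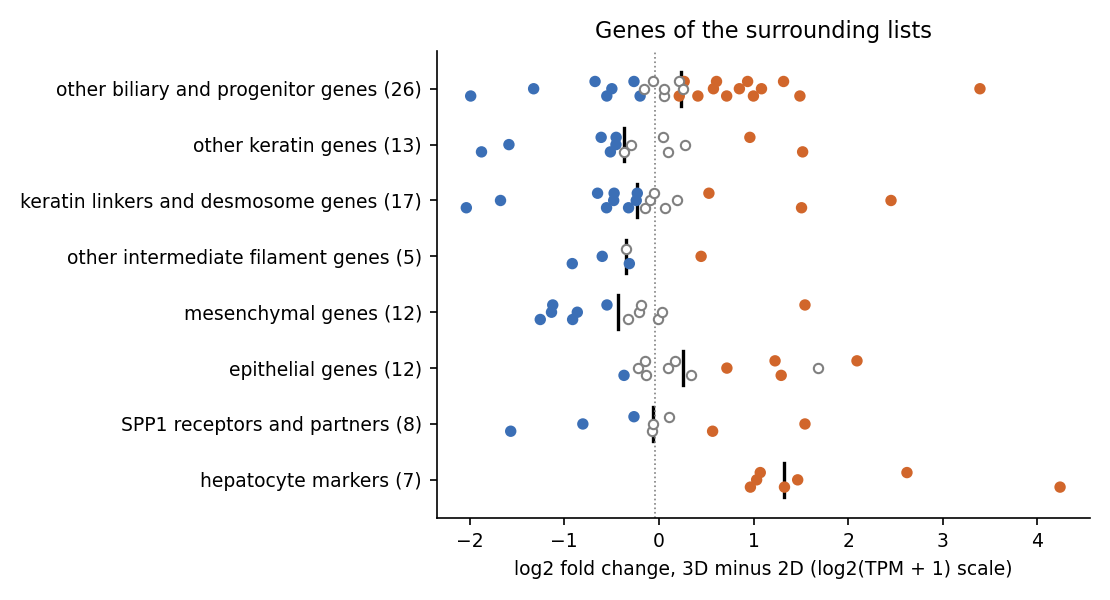
Log2 fold change of 3D minus 2D for the tested genes of 8 lists, with the number tested in brackets. Filled points passed an adjusted p-value under 0.05, open points did not, black bars are list medians and the dotted line is the median of all genes tested. The medians run from -0.44 for mesenchymal genes to 1.33 for hepatocyte markers.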

How the data were processed

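Polyadenylated RNA of AML12 cells was sequenced from stranded libraries, 2 per culture. By the submitters' processing notes and the study's methods, cutadapt 1.8.3 and Trimmomatic 0.36 were used for trimming, HISAT2 2.0.5 for alignment to GRCm38 and StringTie 1.3.4 for quantification. TPM per library was deposited by the authors. Their DESeq2 log2 fold change and p-value, also deposited by the authors, were not used. Since TPM keeps no depth, no interval from read counts was computed.

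Genes with a mean of at least 1 TPM (14116 of 31828) were compared on log2(TPM + 1), which understates changes of low genes, by limma 3.58.1 (R 4.3.3, eBayes with trend and robust variance, culture as the only factor, two-sided, Benjamini-Hochberg adjustment). The script was tested on simulated data. Members and gene lists were chosen with earlier results of these data known. Of the listed genes, 6 were on more than 1 list, among them Itgb3, Cd44 and Des, so the list counts are not separate observations. Named were all members, other keratins with at least 1 TPM in a library, keratin neighbours of members, the 4 genes of highest mean TPM in each list and the 2 called genes of largest absolute log2 fold change. Cell type markers outside this rule were named after their values were seen. Of the members, 9 have the same position in GENCODE M21, and Epcam has another end. Alternatives were pseudocounts of 0.1 and 5, no filter or a mean of at least 5 TPM, centring, quantile normalization, rescaling, stricter thresholds, a constant prior variance, a replicate block and leaving out each library. Figures were drawn with matplotlib 3.10.9. The series' chromatin contact libraries were not used here. The values of 1 gene are not reported here.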

Additional observations from a re-analysis of the deposited data

How the results depend on the processing

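All 105 values of the 8 tested members under the alternatives kept their direction and stayed past the threshold, with the highest adjusted p-value at 0.0249 for Sox9 without 3D replicate 2. Counts of members called stayed at 3 higher and 5 lower, except that with an absolute log2 fold change over 1 they were 1 (Spp1) and 1 (Vim). Leaving out each library in turn kept 3 and 5. With a library left out, the lone one of its culture is assumed to vary like the other culture. Over these 4 settings the log2 difference of the summed keratin members was -0.83 to -0.79 and the difference of the Krt8 to Krt18 ratio was 0.0293 to 0.0375. The difference of the type II to type I ratio ranged from -0.000157 to 0.00866. Rescaling to the total without mitochondrial genes and the 20 highest genes moved the summed keratin difference from -0.81 to -0.78. Adding Krt8-ps to Krt8 left it at -0.81.

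With the replicate block, 3 members were higher and 5 lower, as without it, and 6248 genes were called in all against 7122. Same-numbered libraries did not deviate together (correlation of deviations -0.0549 across genes), and no pairing was taken from the numbers. Of 330 counts for the surrounding lists, 282 were within 1.5 times of the value given. The main limits are 2 libraries per culture, unknown depth, values relative to the library total, and a hydroxyurea time that differed between the cultures in all libraries. The Gm42793 alternative for Spp1 was chosen after seeing the data.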
